A study of Homo sapiens with 3 samples.

Results

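The miRNAs described here are both arms of miR-483 and both arms of miR-675, which are encoded 137 kb apart in the imprinted IGF2/H19 region of chromosome 11. They were taken by name as hsa-miR-483-5p, hsa-miR-483-3p, hsa-miR-675-5p and hsa-miR-675-3p, and are 4 of the 2588 mature miRNAs listed. Each of the 4 is listed at 1 locus, so no value was summed over copies or split between them.

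The libraries came from parental, untreated cells of 3 established lines: C643, a thyroid cancer line, ES-2, an ovarian cancer line, and Huh-7, a liver cancer line. All were grown in DMEM with 10% FBS and harvested 48 hours after seeding, and small RNA was sequenced from 50 ng of total RNA. Each line was measured in 1 library, so differences between lines have no replicate check and all intervals cover counting error alone. C643 was sequenced to 8183100 miRNA reads, Huh-7 to 2173587 and ES-2 to 1663181. A miRNA without a read could therefore still hold a share of up to 3 reads, which is 3.67e-05% for C643, 0.000138% for Huh-7 and 0.000180% for ES-2.

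IGF2 encodes insulin-like growth factor 2, a fetal growth factor that is normally expressed from the paternal allele, and H19 is a long non-coding RNA normally expressed from the maternal allele. A shared imprinting control region directs which gene is active on each chromosome. miR-483 is cut from an intron of IGF2 and miR-675 from the first exon of H19, and each hairpin can give a 5p and a 3p product. IGF2 is abundant in fetal liver, and raised levels of IGF2 and miR-483 are well known from liver cancer and Wilms tumor. miR-675 is best known from the placenta, where it restrains growth.

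MIR483 lies on chromosome 11 at 2134134 to 2134209 on the minus strand (GRCh38, GENCODE version 29). It falls in an intron of each of the 9 IGF2 transcripts that span it, and of 1 INS-IGF2 transcript. MIR675 lies on the same strand at 1996759 to 1996831. It is inside exon 1 of 4 H19 transcripts and in an intron of 1 further H19 transcript. The sequences of miR-675 were taken from RefSeq (GRCh38.p14) and are shown because their seed, bases 2 to 8, sets which other miRNAs could act on the same targets. Capitals mark the seed, and miR-4466, encoded on chromosome 6 at 156779710 to 156779727, is printed for comparison.
hsa-miR-675-5p: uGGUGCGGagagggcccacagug
hsa-miR-675-3p: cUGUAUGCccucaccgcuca
hsa-miR-4466: gGGUGCGGgccggcgggg

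The whole MIR675 hairpin of 73 bases, read from the minus strand at chr11:1996759-1996831, shows where the arms are cut. Capitals mark the mature products, bases 10 to 32 for the 5p arm and 45 to 64 for the 3p arm.
MIR675: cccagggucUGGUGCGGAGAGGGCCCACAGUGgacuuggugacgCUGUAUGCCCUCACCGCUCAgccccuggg

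miR-483 was abundant in Huh-7, present in C643 and without a read in ES-2. hsa-miR-483-3p had 22452 reads in Huh-7, 3264 in C643 and 0 in ES-2. Its share of miRNA reads was 1.03% in Huh-7 (Wilson 95% CI 1.02 to 1.05), which placed it at rank 16. In C643 the share was 0.0399% (0.0385 to 0.0413), at rank 92. The order of the lines was thus Huh-7, C643 and ES-2, with intervals that did not overlap.

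hsa-miR-483-5p followed the same order. It had 8291 reads in Huh-7, a share of 0.381% (Wilson 95% CI 0.373 to 0.390) at rank 36. In C643 it had 774 reads and a share of 0.00946% (0.00882 to 0.0101), at rank 153. Like the 3p arm, it had 0 reads in ES-2, and the intervals of Huh-7 and C643 did not overlap.

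**Figure D1:**
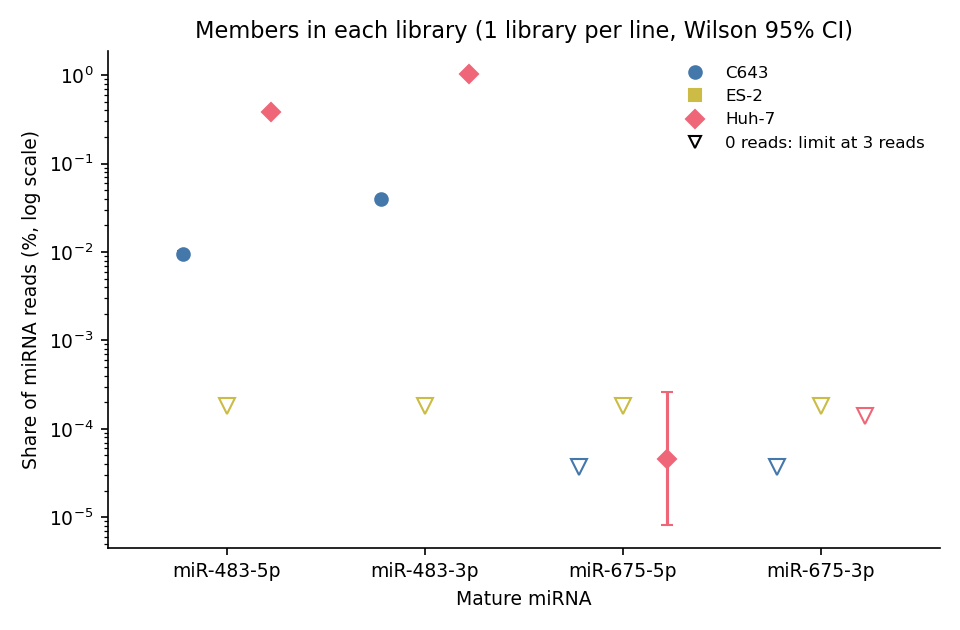
Share of miRNA reads in percent (log axis) for each member in C643, ES-2 and Huh-7, 1 library each; filled points are measured shares with Wilson 95% intervals, mostly narrower than the point, and open triangles mark the limit of 3 reads where no read was found. The arms of miR-483 reach 1.03% and 0.381% in Huh-7 and lie lower in C643, while the 1 read of miR-675-5p in Huh-7 is the only filled point for miR-675.

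Compared by share of reads, hsa-miR-483-3p was 25.9-fold higher in Huh-7 than in C643 (exact 95% CI 25.0 to 26.9). hsa-miR-483-5p was 40.3-fold higher (37.5 to 43.5). The deposited values, whose scale differs between libraries, gave smaller folds for the same pair, 16.5 for the 3p and 25.7 for the 5p arm. Against ES-2, Huh-7 was at least 5727-fold higher for the 3p arm and at least 2115-fold higher for the 5p arm, taking 3 reads for ES-2, and on the deposited scale these bounds were 3036-fold and 1121-fold. C643 was at least 221-fold and at least 52.4-fold higher than ES-2, in the same order of arms.

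ES-2 was the shallowest library, so its 0 reads were set against the number its depth would give. At the share measured in C643, the ES-2 library would have held 663 reads of the 3p arm and 157 of the 5p arm, against 0 of each. These are bulk libraries, in which fewer cells with the miRNA and less of it per cell cannot be told apart, and IGF2 mRNA was not analysed here.

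Many other miRNAs also differed between these lines, and the miR-483 arms have to be read against that. On the log2(value + 1) scale of the deposited values, 27.7% of the 390 miRNAs that reached 10 in Huh-7 or ES-2 were at least 4-fold higher in Huh-7. Both arms of miR-483 were among them, with differences of 12.63 for the 3p and 11.19 for the 5p arm against a median of 0.54 over the 390. Huh-7 exceeded C643 4-fold for 25.1% of 399 miRNAs, and the miR-483 differences there were 4.04 for the 3p and 4.67 for the 5p arm. C643 exceeded ES-2 4-fold for 15.4% of 351 miRNAs, with differences of 8.58 and 6.52 for the 3p and 5p arm. Both arms of miR-675 were below 10 in each library, so neither entered these comparisons, and the arms of miR-483 entered those with ES-2 only through the other line, so there they had to differ. C643 is in a table of its own that may have been scaled separately, so its differences on this scale are descriptions.

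miR-675 was at the limit of detection in all 3 lines. hsa-miR-675-5p had 1 read in Huh-7, a share of 4.60e-05% (Wilson 95% CI 8.12e-06 to 0.000261). In ES-2 and C643 it had 0. hsa-miR-675-3p had 0 reads in each library. The intervals overlapped, so the lines could not be ordered for miR-675 at this depth. The 1 read is itself under the limit of 3 reads.

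The hairpins of IGF2 and H19 differed within the libraries that held either. Summed over arms, miR-483 had 30743 reads in Huh-7 against 1 of miR-675, a ratio of 30743 with an exact 95% interval from 5517 to 1.21e+06. In C643 the 4038 reads of miR-483 stood against 0 of miR-675, so miR-483 was at least 1346-fold higher. In ES-2 both hairpins had 0 reads and no ratio was formed. These ratios compare sequencing reads, not molecules, and H19 RNA was not analysed here.

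The seed of miR-675-5p, printed above, is shared by 2 of the 2281 listed miRNAs that could be matched to a RefSeq sequence, miR-675-5p itself and miR-4466. miR-4466 had 113 reads in C643, a share of 0.00138% (Wilson 95% CI 0.00115 to 0.00166), while Huh-7 held 3 reads of it and ES-2 0. Among matched miRNAs in C643 the seed GGUGCGG was thus carried by reads of miR-4466 alone, and in Huh-7 by 4 reads in all. The seed of miR-675-3p was found in no other matched miRNA. In base composition miR-675-5p is rich in G and C, at 69.6% against a median of 52.2% over the matched miRNAs, and 228 of them exceed it.

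The surroundings of the hairpins were examined to see whether the miR-483 signal extended to other miRNAs of the region. Within 1 Mb of the span from MIR675 to MIR483, 4 further precursors are annotated, MIR6744, MIR4298, MIR7847 and MIR4686. Their 5 listed mature miRNAs had 0 reads in each of the 3 libraries. Of the miRNAs within this window, the arms of miR-483 were hence the only ones with more than 1 read. Most listed miRNAs had no read either. Of all 2588, 649 had a read in C643, 858 in Huh-7 and 608 in ES-2, so 5 without reads say little about the region. MIR4686 lies closest to MIR483, at 2173063 to 2173138 on the opposite strand.

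Within 2 Mb the nearest precursor with reads was MIR210, at 568089 to 568198, whose product miR-210-3p is the classic miRNA of the hypoxia response. miR-210-3p had 79 reads in Huh-7, 20 in C643 and 0 in ES-2. miR-210-5p was read 7 times, all in Huh-7. miR-4687-3p had 19 reads in C643 alone, and miR-6743-3p had 2 in ES-2 alone.

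**Figure D2:**
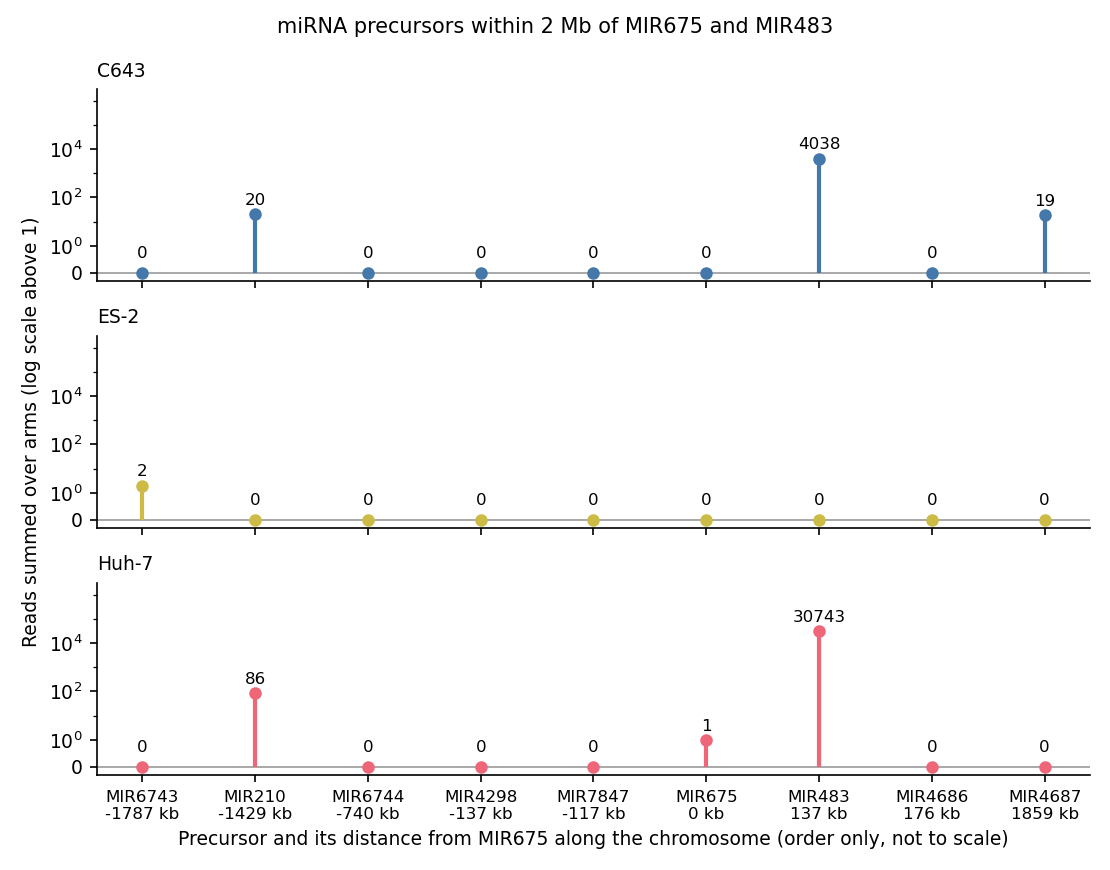
Reads summed over arms (log axis above 1) for the miRNA precursors within 2 Mb of MIR675 and MIR483, placed in chromosomal order, not to scale, with their distance from MIR675 in kb under each name, 1 panel per library; the number above each point is its read count. MIR483 stands at 4038 reads in C643 and 30743 in Huh-7, and the precursors between MIR6744 and MIR4686 other than MIR483 and MIR675 are at 0 in each panel.

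Over the whole of chromosome 11, miR-483 led in Huh-7 but not in C643. The chromosome 11 loci held 74125 reads in Huh-7, of which miR-483 made up 41.5% (Wilson 95% CI 41.1 to 41.8). There hsa-miR-483-3p ranked 1, ahead of miR-192-5p with 19125 reads, and hsa-miR-483-5p ranked 4. In C643 the 763811 chromosome 11 reads came mainly from let-7a-5p with 374149 and miR-100-5p with 333032. miR-483 made up 0.529% of them (0.513 to 0.545), with the 3p arm at rank 5 and the 5p arm at rank 8. These shares depend on how reads of let-7a-5p were divided among its loci on several chromosomes.

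The 3p arm of miR-483 was the more abundant product wherever the hairpin was found. It held 73.0% of the reads of both arms in Huh-7 (exact 95% CI 72.5 to 73.5) and 80.8% in C643 (79.6 to 82.0). In other terms, 3p exceeded 5p 2.71-fold in Huh-7 (2.64 to 2.78) and 4.22-fold in C643 (3.90 to 4.57). The 3p percentage was 7.80 points higher in C643 (Newcombe 95% CI 6.46 to 9.09), a difference larger than counting error.

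Counted over all hairpins compared, this shift was larger than that of most between these libraries, but not the largest. Of 125 hairpins with both arms listed and at least 100 reads in C643 and in Huh-7, 30 had a larger absolute shift than miR-483, and the median absolute shift was 1.78 points. The same arm dominated in both lines for 117 of the 125, miR-483 included. No arm percentage was formed for miR-675 or for ES-2.

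The 5p arm, though the minor product of miR-483, was more plentiful than the minor arm of most hairpins. In Huh-7 the minor arm made up a median of 3.01% over 147 hairpins with at least 100 reads, and 16 of them had a larger minor share than miR-483. In C643 the median was 2.50% over 178 hairpins, and 36 had a larger minor share. Paralogous hairpins that give the same mature name were counted as 1 hairpin here.

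**Figure D3:**
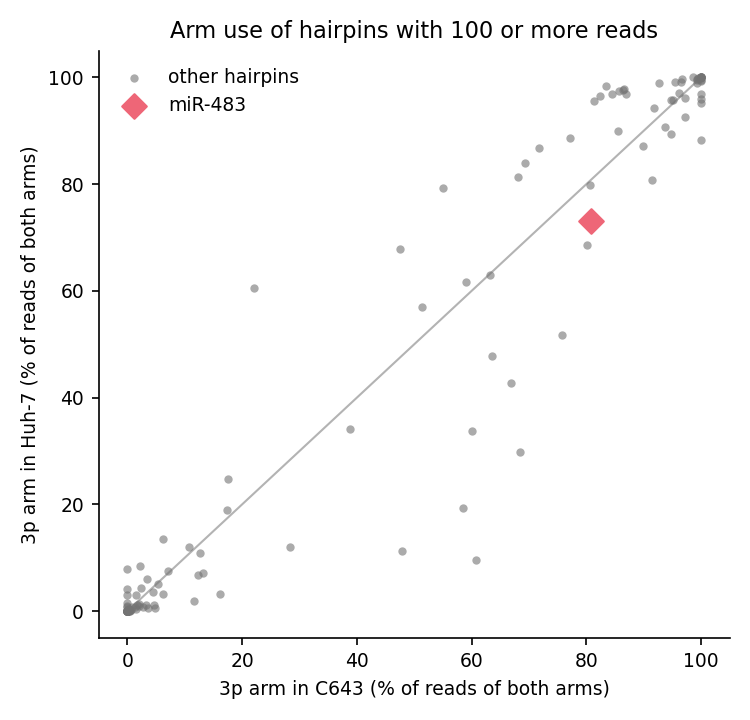
Percentage of reads from the 3p arm in C643 (horizontal axis) and Huh-7 (vertical axis) for 125 hairpins with at least 100 reads in each library, with the line of equal values in grey. miR-483 lies below the line at 80.8% and 73.0%, toward the 3p end of both axes but short of 100%.

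The miRNAs with the pattern most like that of the members were found by Euclidean distance on the log2(value + 1) scale over the 3 libraries, which are only 3 points. For each arm of miR-483 the closest miRNA was the other arm, at a distance of 2.52. For the 3p arm miR-148a-3p came next at 3.47, with 62362 reads in Huh-7, 4447 in C643 and 11 in ES-2. It was followed by miR-122-5p at 5.19, the dominant miRNA of hepatocytes, then by miR-486-5p at 5.88 and miR-200b-3p at 6.17.

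For the 5p arm the next miRNAs were miR-486-5p at 3.88, miR-1269a at 4.05, miR-148a-5p at 4.23 and miR-200b-3p at 4.38. miR-1269a had 5747 reads in Huh-7, 40 in C643 and 0 in ES-2, and miR-148a-5p had 591, 209 and 0. All of these miRNAs were highest in Huh-7, which largely follows from a search for values near those of the miR-483 arms. Likeness was not searched for miR-675, whose arms did not reach a value of 10.

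A list of 7 miRNAs linked to hepatocytes served to check the Huh-7 label and to compare its pattern with miR-483. It comprised both arms of miR-122 and of miR-885, miR-192-5p, miR-194-5p and miR-148a-3p. Summed, they held 18.5% of reads in Huh-7 (Wilson 95% CI 18.4 to 18.5), against 0.0139% in ES-2 and 0.0751% in C643. All 7 were at least 4-fold higher in Huh-7 than in ES-2 and than in C643, with median log2 differences of 8.21 and 7.26 on the deposited scale. The same threshold was passed by 27.7% and 25.1% of all miRNAs compared, whose medians were 0.54 and 0.21. Both arms of miR-122 and of miR-885 and miR-148a-3p were below 10 in ES-2. They entered that comparison only through Huh-7, so there they had to be higher in Huh-7. Against C643 the same held for miR-122-3p, with 7 reads in C643, miR-885-5p with 12 and miR-885-3p with 1. The counts and medians are thus partly fixed by the filter, while the summed shares do not depend on it. By summed share, most of it from miR-122-5p at 13.3%, the Huh-7 library thus carried miRNAs linked to its labelled tissue of origin. The list was chosen with earlier results of these data known, which weakens this check.

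In C643 the balance between miR-483 and these hepatocyte miRNAs was different. miR-483 had 0.657 reads for each read of the list in C643, against 0.0765 in Huh-7. These ratios rest mainly on 1 miRNA each. In C643 miR-148a-3p gave 4447 of the 6149 reads of the list, and in Huh-7 miR-122-5p gave 288469 of 401710. In C643 hsa-miR-483-3p exceeded miR-122-5p with 468 reads, miR-192-5p with 560, miR-194-5p with 654 and miR-885-5p with 12, and was below miR-148a-3p with 4447. In Huh-7 it was below miR-122-5p, with 288469 reads, and miR-148a-3p, with 62362, but above miR-192-5p, miR-194-5p with 18351 and miR-885-5p with 11365. Each of the 7 listed miRNAs had a read in C643, though miR-122-3p had only 7 reads and miR-885-3p 1, under the limit of 3. Their part in the miR-483 reads of C643 was not tested. No list of thyroid or ovary miRNAs was tested, so the labels of C643 and ES-2 were not checked in this way.

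miR-483 was next set beside miRNAs of imprinted loci outside this region, a list of 28. It comprised both arms of miR-335 from the MEST locus, 3 miRNAs of the GNAS locus, 18 of the 14q32 cluster and 5 of the 19q13 cluster. Together they held 0.107% of reads in Huh-7 (Wilson 95% CI 0.103 to 0.112). The share was 0.00855% for C643 (0.00794 to 0.00921) and 0.00974% for ES-2 (0.00835 to 0.0114). miR-483 summed over arms held 1.41% in Huh-7 (1.40 to 1.43) and 0.0493% in C643 (0.0478 to 0.0509). It thus exceeded the whole list 13.2-fold in Huh-7 and 5.77-fold in C643, and in ES-2 it lay below it.

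Within that list the loci did not follow the lines alike. The MEST miRNAs were, like miR-483, highest in Huh-7, with 1501 reads of miR-335-3p and 770 of miR-335-5p. Their summed share was 0.104% in Huh-7. C643 was at 0.00101% (Wilson 95% CI 0.000818 to 0.00126) and ES-2 at 0.00445% (0.00354 to 0.00559), so their sum was higher in ES-2 than in C643, the reverse of miR-483. The sum rests on miR-335-3p, which had 52 reads in C643 and 69 from the shallower ES-2 library. The share of miR-335-5p was 0.000379% in C643, from 31 reads, and 0.000301% in ES-2, from 5 reads.

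Summed, the GNAS miRNAs were highest in ES-2, at 0.00517% (Wilson 95% CI 0.00419 to 0.00639), against 0.00235% in C643 and 0.00152% in Huh-7. They were mainly miR-296-3p, with 78 reads in ES-2, 131 in C643 and 32 in Huh-7, while miR-298 had 0 reads throughout. miR-296-5p did not have that order, at 0.000745% in C643 from 61 reads, 0.000481% in ES-2 from 8 reads and 1 read in Huh-7. The 14q32 miRNAs were highest in C643, at 0.00519% (0.00472 to 0.00571), and miR-409-3p led them there with 123 reads. They held 0.00147% of reads in Huh-7, and only 2 reads came from ES-2. In C643, the deepest library, 13 of the 18 had a read, as did 649 of all 2588 miRNAs. In Huh-7 it was 8 of 18, against 858 of 2588, and in ES-2 2 of 18, against 608 of 2588. The 5 listed 19q13 miRNAs had 0 reads in each library. Other products of the 14q32 and 19q13 clusters were not part of the list.

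**Figure D4:**
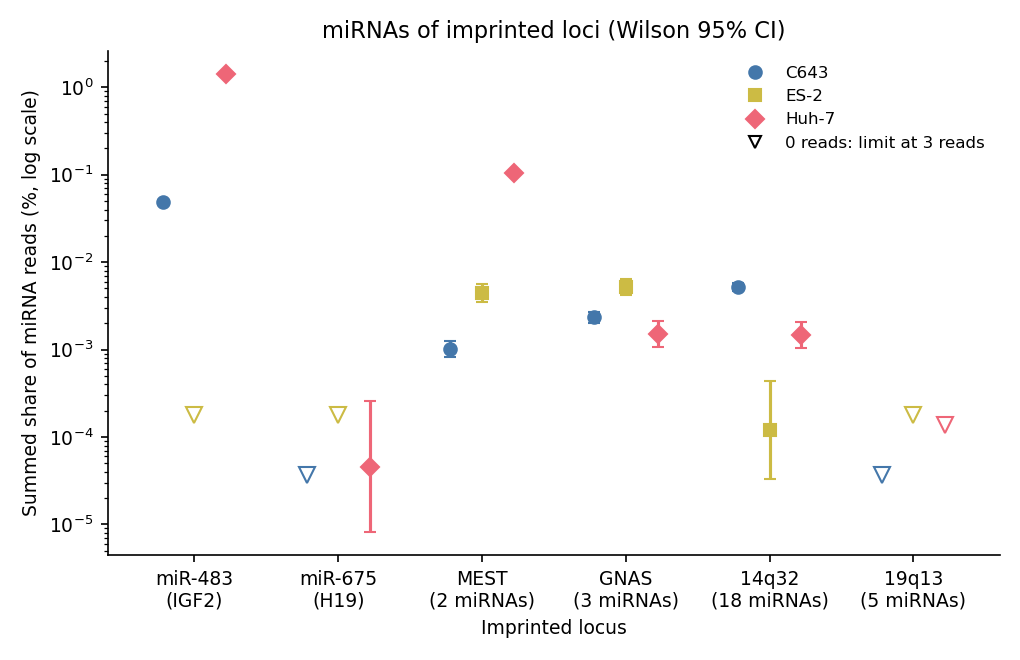
Summed share of miRNA reads in percent (log axis) for miR-483, miR-675 and the listed miRNAs of 4 other imprinted loci in each library; points carry Wilson 95% intervals and open triangles mark the limit of 3 reads. miR-483 in Huh-7, at 1.41%, is the highest point, and the line with the highest summed share is Huh-7 for miR-483 and MEST, ES-2 for GNAS and C643 for 14q32.

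Counted against the filter of 10 units, few of the 28 could be compared between lines. Of 3 that passed for Huh-7 against ES-2, 2 were at least 4-fold higher in Huh-7, where 27.7% of all miRNAs compared were, and 1 in ES-2. Of 4 that passed for Huh-7 against C643, 2 were higher in Huh-7, against 25.1% of all, and 1 in C643. Of 3 that passed for C643 against ES-2, 1 was higher in C643, against 15.4% of all, and 1 in ES-2. Only miR-335-3p for Huh-7 against ES-2 and miR-296-3p for C643 against ES-2 reached 10 in both lines. The others entered only through the line where they were higher, so the filter fixed their direction, though not whether each reached 4-fold. These counts therefore carry little weight. Absence of a read from a 14q32 or 19q13 miRNA says only that it was not detectable at this depth.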

How the data were processed

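Small RNA libraries of C643, ES-2 and Huh-7, 1 per line, were prepared with the NEXTflex small RNA kit from TRIZOL-extracted RNA, for Illumina sequencing. The submitters' processing notes name cutadapt 1.14, Bowtie2 2.3.3, SAMtools 1.5, featureCounts 1.5.3, edgeR 3.18.1 and hg38. The miRNA annotation and the handling of strand and of reads matching several loci are not given in the sources used here. The authors deposited 2 tables, C643 in 1 and the other lines in the second, with a signal per locus that they name CPM. The deposited columns summed to 959302 for C643, 1.15e+06 for ES-2 and 612015 for Huh-7, not to 1000000.

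Each deposited value was a whole multiple of the smallest in its column. Dividing by it recovered reads that were whole to within 0.01 for 100% of nonzero values. Loci were summed by mature name. Shares were reads over all miRNA reads of the library, with Wilson intervals. Arm percentages, ratios and folds had exact binomial (Clopper-Pearson) intervals, and the difference of arm percentages a Newcombe interval. Reads may be PCR copies, so intervals and the limit of 3 reads cover counting error only. A fold against 0 reads was computed against 3 reads per library and is a lower bound. Libraries were compared by the difference of log2(value + 1) over miRNAs at 10 or more in either, with 4-fold as the threshold and no p-value. This scale understates the fold of low miRNAs. Hairpins were paired by name.

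Named miRNAs were the 4 members, miRNAs sharing a seed with them, miRNAs within 1 Mb, the 5 nearest in pattern to each member at 10 or more, and the imprinted and hepatocyte lists. miRNAs between 1 and 2 Mb, the leading miRNAs of chromosome 11 and those of the closing observations were named after their values had been seen. The members and lists were chosen with earlier results of these data known. Python 3.11.15, scipy 1.17.1 and pandas 2.3.3 were used, and the read test was checked on simulated reads. Precursor positions came from GENCODE version 29 and sequences from RefSeq (GRCh38.p14), where 2 of the 4 members, hsa-miR-675-5p and hsa-miR-675-3p, were matched.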

Additional observations from a re-analysis of the deposited data

How the results depend on the processing

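No paired analysis was possible because a line is represented by a single library, with no numbers that could pair it. For the same reason no library could be left out. With a denominator of 1000000, without miR-21-5p in the denominator and with 1 locus per mature miRNA, the summed share of the members was 0.0473%, 0.0691% and 0.0593% in C643 and 0.866%, 2.12% and 1.55% in Huh-7. These changes follow from the denominators, and ES-2 was at 0 under each. Counting the dominant arm of each hairpin lowered the bound of miR-483 over miR-675 in C643 to 1088-fold and the ratio in Huh-7 to 22452. With 0.5 reads added to each hairpin the ratios, which are then no bounds, were 8077 and 20496. A filter at 100 left 1 member higher in C643 than in ES-2, since the 5p arm of miR-483 is under 100 in both. In the other settings of pseudocount, filter, fold threshold and scaling, both arms of miR-483 were at least as far apart as the threshold in each pair of lines. An exact binomial test on the reads of Huh-7 and ES-2 with Benjamini-Hochberg adjustment, added after the data had been seen, called 344 of 390 miRNAs, both arms of miR-483 among the 210 higher in Huh-7. Both arms entered with 0 reads in ES-2, so their call adds no support, and the test compares these libraries, not the lines. A 2 Mb window gave 2 neighbour miRNAs at a deposited value of 1 or more in C643, 2 in Huh-7 and 1 in ES-2, the last with 2 reads and so under the limit of 3, against 0 in each at 1 Mb.

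On the deposited scale, also added after the data had been seen, miR-483-3p was 16.5-fold and miR-483-5p 25.7-fold higher in Huh-7 than in C643. The bounds there were 3036-fold and 1121-fold for Huh-7 over ES-2, and 184-fold and 43.6-fold for C643 over ES-2, so no direction changed.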

Other observations

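The following was chosen after the values had been seen. Of the 1980 miRNAs without a read in ES-2, 46 reached a value of 10 in Huh-7, 23 in C643 and 9 in both. Among the 1980, miR-483-3p had the highest value in Huh-7 and in C643, and miR-483-5p ranked 3 in each. Besides the arms of miR-483, the 9 were miR-148a-5p, miR-365b-5p, miR-548h-5p, miR-7976, miR-4707-5p, miR-145-5p and miR-137. Of these 7, miR-148a-5p had the highest value in Huh-7, with 591 reads there and 209 in C643, and miR-365b-5p the highest in C643, with 507 reads there and 144 in Huh-7. The remaining 5 had between 42 and 108 reads in Huh-7.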
